A study of Homo sapiens with 4 samples.

Results

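The strong distal sites of wild-type BRG1 only are 873 regions, out of the 24212 peaks called for wild-type BRG1 and the 49583 peaks called in the series. They were chosen in 4 steps. Of the 24212 iBRG1 peaks, 2660 had an authors' score of 10 or more. Of these, 1135 overlapped no peak of BRG1 without its HSA domain (i∆HSA), at any score. That is 42.7% of the strong peaks, where 79.5% of all iBRG1 peaks overlapped none. A GC content of at least 25% left 1134, and 873 of these lay more than 1 kb from the start of every annotated transcript. The score and the overlap chose the sites, so both are given below as descriptions without a test.

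CUT&RUN was performed with an antibody against V5 in the adrenocortical carcinoma line SW-13, whose cells make neither BRG1 nor BRM. One group expressed wild-type BRG1 (iBRG1) and the other a BRG1 protein from which the HSA domain was removed (i∆HSA). Each carried a V5 tag at the C-terminus and was expressed from a doxycycline-inducible Sleeping Beauty transposon in a stably selected clonal line. Both groups were treated with doxycycline for 24 h, with 2 replicates of 300000 cells per construct. The deposited values are 1 peak list per construct, so no value below has a replicate error, and the depth behind the peaks is unknown. Intervals are 95% intervals (Wilson for a share, Newcombe for a difference of shares). They cover counting error only, since regions of a list are not replicates of a condition. A site absent from the i∆HSA list is a site where no peak was called there, and no signal value was available to show how far below the cutoff it lay.

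BRG1 is an ATPase of the SWI/SNF complex, which slides and evicts nucleosomes, and its HSA domain is a helical segment on which actin and actin-related proteins assemble. SWI/SNF has no strong sequence preference of its own and is found at enhancers away from gene starts, where sequence-specific factors sit. AP-1, a dimer of FOS and JUN family proteins, and the TEAD proteins, which act with YAP and TAZ, are among the factors known for occupying such enhancers in adherent cells.

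The sequence that set these sites apart from the DNA around them was the AP-1 motif, so the 5 highest-scoring sites with an AP-1 match within 25 bp of the midpoint are shown first. All are hg19 plus-strand sequence of the 100 bp around the midpoint, and capitals mark the AP-1 motif TGACTCA or its reverse complement.
HOATZ intron, chr11:111401976-111402075: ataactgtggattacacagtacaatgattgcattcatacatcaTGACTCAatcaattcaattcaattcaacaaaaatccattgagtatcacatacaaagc
PIK3CA intron, chr3:178899063-178899162: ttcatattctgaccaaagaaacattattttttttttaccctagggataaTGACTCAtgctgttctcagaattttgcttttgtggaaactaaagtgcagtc
IGF2BP2 intron, chr3:185525662-185525761: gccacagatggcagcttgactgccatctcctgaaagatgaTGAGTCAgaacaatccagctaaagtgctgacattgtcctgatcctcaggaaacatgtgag
chromosome 2 intergenic, chr2:111112387-111112486: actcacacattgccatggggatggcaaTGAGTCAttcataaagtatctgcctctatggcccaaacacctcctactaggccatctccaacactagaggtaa
intergenic near GJA3, chr13:20699678-20699777: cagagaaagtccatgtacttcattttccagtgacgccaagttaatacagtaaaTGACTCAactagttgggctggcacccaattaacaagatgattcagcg

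The first lies in an intron of HOATZ, a gene of cilia and flagella, in a peak with a score of 61. The second lies in an intron of PIK3CA, a catalytic subunit of phosphoinositide 3-kinase, with a score of 41. The third lies in an intron of IGF2BP2, an RNA-binding protein gene, with a score of 30. The other two are intergenic, with scores of 27 and 26, and the latter is 12.7 kb outside GJA3, a connexin gene. In all, 52 of the 873 sites (5.96%) had an AP-1 match this close to the midpoint.

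The 3 highest-scoring sites with a TEAD motif and no AP-1 motif are shown over the 200 bp around the midpoint, with the TEAD motif ACATTCC or its reverse complement in capitals. They are 3 of 56 such sites (6.41%), and their peaks had scores of 29, 28 and 27.
MGA intron, chr15:41958884-41959083: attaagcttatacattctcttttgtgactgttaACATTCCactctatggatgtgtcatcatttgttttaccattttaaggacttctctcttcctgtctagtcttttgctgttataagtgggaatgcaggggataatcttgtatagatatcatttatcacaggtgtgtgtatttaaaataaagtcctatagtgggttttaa
BCAS3 intron, chr17:59142610-59142809: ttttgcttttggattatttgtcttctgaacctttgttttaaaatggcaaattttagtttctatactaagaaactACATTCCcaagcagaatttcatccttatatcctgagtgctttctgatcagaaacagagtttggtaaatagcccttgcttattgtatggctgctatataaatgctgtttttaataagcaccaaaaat
CPSF2 intron, chr14:92627223-92627422: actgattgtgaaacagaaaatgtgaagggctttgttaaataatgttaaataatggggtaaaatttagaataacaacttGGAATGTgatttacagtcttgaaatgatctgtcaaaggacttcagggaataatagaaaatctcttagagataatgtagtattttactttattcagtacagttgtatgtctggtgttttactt

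The 873 sites had a median score of 13 (quartiles 11 and 18, range 10 to 180). The median width was 1752 bp (range 312 to 6428) and the median GC content 36.97% (range 27.0 to 58.3). Scores were concentrated near the cutoff: 505 sites (57.8%) scored under 15 and 157 (17.98%) scored 20 or more. Just inside the cutoff, 158 sites scored 10 and 119 scored 11. Just outside it, 197 peaks that met the other conditions scored 9 and 252 scored 8. The site nearest to a transcript start was 1005 bp away, and the farthest of the 261 peaks left out for this reason was 994 bp away. One peak, with a GC content of 24.7%, was left out for GC content alone.

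The distance to the nearest i∆HSA peak ranged from 227 bp to 770 kb, with a median of 25.4 kb. It was under 1 kb for 4 sites, under 5 kb for 92 (10.5%) and at least 100 kb for 110 (12.6%). The strong distal iBRG1 peaks that did overlap an i∆HSA peak numbered 1172 and are called the shared sites here. They scored higher, with a median of 17 (range 10 to 100), and 38.4% of them scored 20 or more. Their widths (median 1856 bp) and GC content (median 37.7%) were close to those of the iBRG1-only sites. The smallest overlap among the shared sites was 21 bp, and in 20 of them the overlap covered less than 50% of the shorter peak.

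AP-1 was the most enriched of the 16 motifs searched. The motif TGACTCA, sought on both strands within 100 bp of the midpoint, was present at 158 of the 873 iBRG1-only sites, or 18.1% (15.7 to 20.8). Across all iBRG1 peaks the share was 8.84%. The windows 2 kb to each side of the same 873 sites held it at 2.23%, and 1 in 10 windows of the same length taken across the genome held it at 3.04%. The midpoints therefore exceeded their own flanks by 15.9 points (13.3 to 18.6), a ratio of 8.10.

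The shared sites held AP-1 at 18.3% (16.2 to 20.7). The difference was -0.25 points (-3.59 to 3.18), which does not exclude a gap of about 3 points in either direction. By contrast, the 1264 strong distal sites of i∆HSA only, chosen by the same conditions from the other list, held AP-1 at 7.67%. The iBRG1-only sites exceeded them by 10.4 points (7.53 to 13.4). Scores of the iBRG1 and i∆HSA lists are not on a known common scale, so a score of 10 may not mark equal strength in both. The median score was 15 in the i∆HSA-only sites (range 10 to 279) and 13 in the iBRG1-only sites. The 14937 weaker distal peaks of iBRG1 only, with scores under 10, held it at 7.89%, lower by 10.2 points (7.75 to 12.9).

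The TEAD motif ACATTCC was present at 64 sites, or 7.33% (5.78 to 9.25), against 3.97% of all iBRG1 peaks, 2.75% of the flanks and 2.88% of the genome windows. The excess over the flanks was 4.58 points (2.80 to 6.62). The shared sites held it at 5.63%, a difference of 1.70 points whose interval (-0.44 to 3.96) included 0. The i∆HSA-only sites held it at 2.53%, close to their own flanks at 2.57%, and were lower than the iBRG1-only sites by 4.80 points (2.95 to 6.86).

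**Figure D1:**
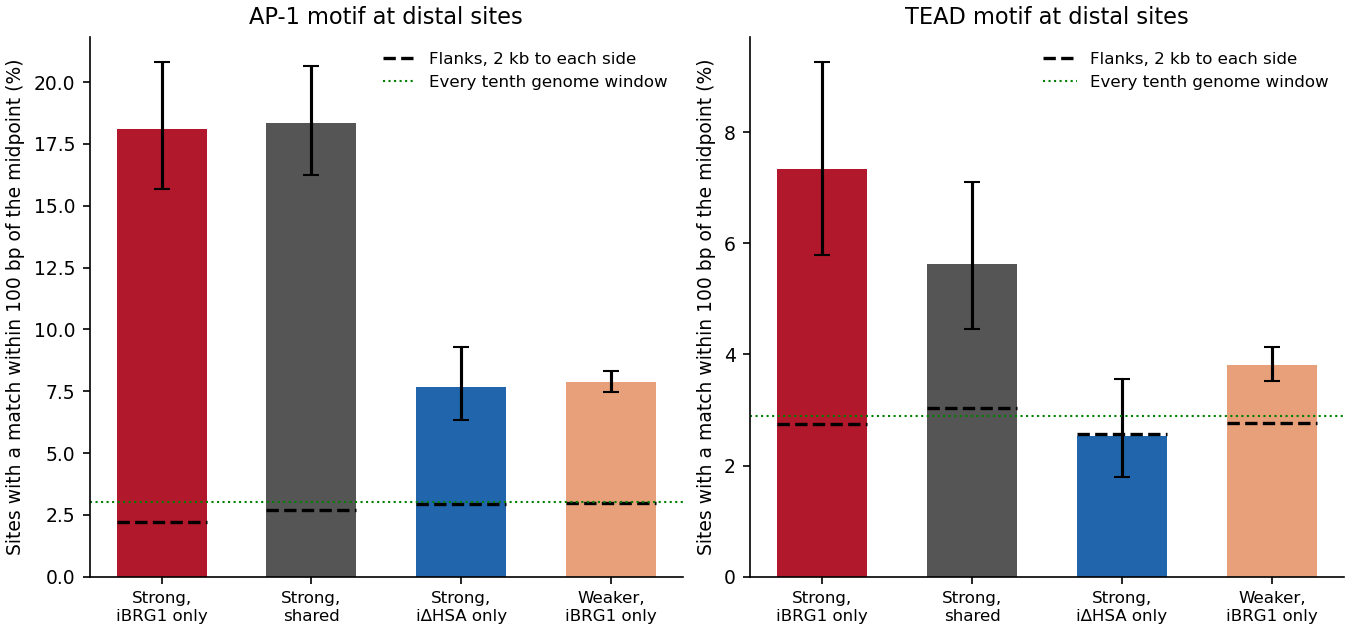
Share of distal sites, in percent, with an AP-1 (left) or TEAD (right) match within 100 bp of the peak midpoint, for the 873 strong iBRG1-only sites, 1172 strong shared sites, 1264 strong i∆HSA-only sites and 14937 weaker iBRG1-only peaks. Bars are shares with 95% Wilson intervals, dashed lines the flanks 2 kb to each side and the dotted line 1 in 10 windows of the genome; AP-1 stood at 18.1% and 18.3% in the iBRG1-only and shared sites and at 7.67% and 7.89% in the other sets.

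The remaining motifs showed little of this pattern at the iBRG1-only sites. The E-box CAGCTG, read by basic helix-loop-helix factors, was at 7.90% against 5.79% in the flanks, higher by 2.12 points (0.11 to 4.34). The E-box CAGGTG, which ZEB and SNAIL repressors also read, was lower at the sites than in the flanks, at 8.48% against 14.3%, by -5.84 points (-8.24 to -3.28). This was not particular to these sites. The shared sites held it at 8.19% against 16.8% in their flanks, and the i∆HSA-only sites at 11.9% against 17.9%. Across all iBRG1 peaks it was 11.1% against 15.9%. The other 12 motifs had intervals that included 0. Among these, the SF-1 motif CAAGGTCA, bound by the adrenal nuclear receptor NR5A1, was present at 7 sites (0.80%) and 1.43% of the flanks. CTCF, the insulator factor, had no match at any of the 873 sites, with a Wilson upper bound of 0.438%.

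Over the 16 motifs, no interval of the difference from the shared sites excluded 0. The widest departures were homeodomain (TAATTA) at 2.35 points higher (-0.30 to 5.11) and C/EBP (TTGCNNAA) at -2.34 points (-5.21 to 0.62). Against the i∆HSA-only sites 9 intervals excluded 0, with 6 motifs higher at the iBRG1-only sites and 3 lower. Besides AP-1 and TEAD, C/EBP was higher by 5.24 points (2.79 to 7.83), homeodomain by 3.82 (1.29 to 6.48), E-box CAGCTG by 3.47 (1.42 to 5.69) and the motif AGATAAG of GATA factors by 2.15 (0.75 to 3.76). E-box CAGGTG, the SP/KLF motif GGGCGGG and CTCF were lower. CTCF was at 0.95% of the i∆HSA-only sites, or 12 of 1264. Against the weaker iBRG1 peaks 5 intervals excluded 0, and the largest of them was AP-1. These intervals are not adjusted for the number of motifs. Those against the i∆HSA-only sites also compare sets cut by scores without a known common scale.

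**Figure D2:**
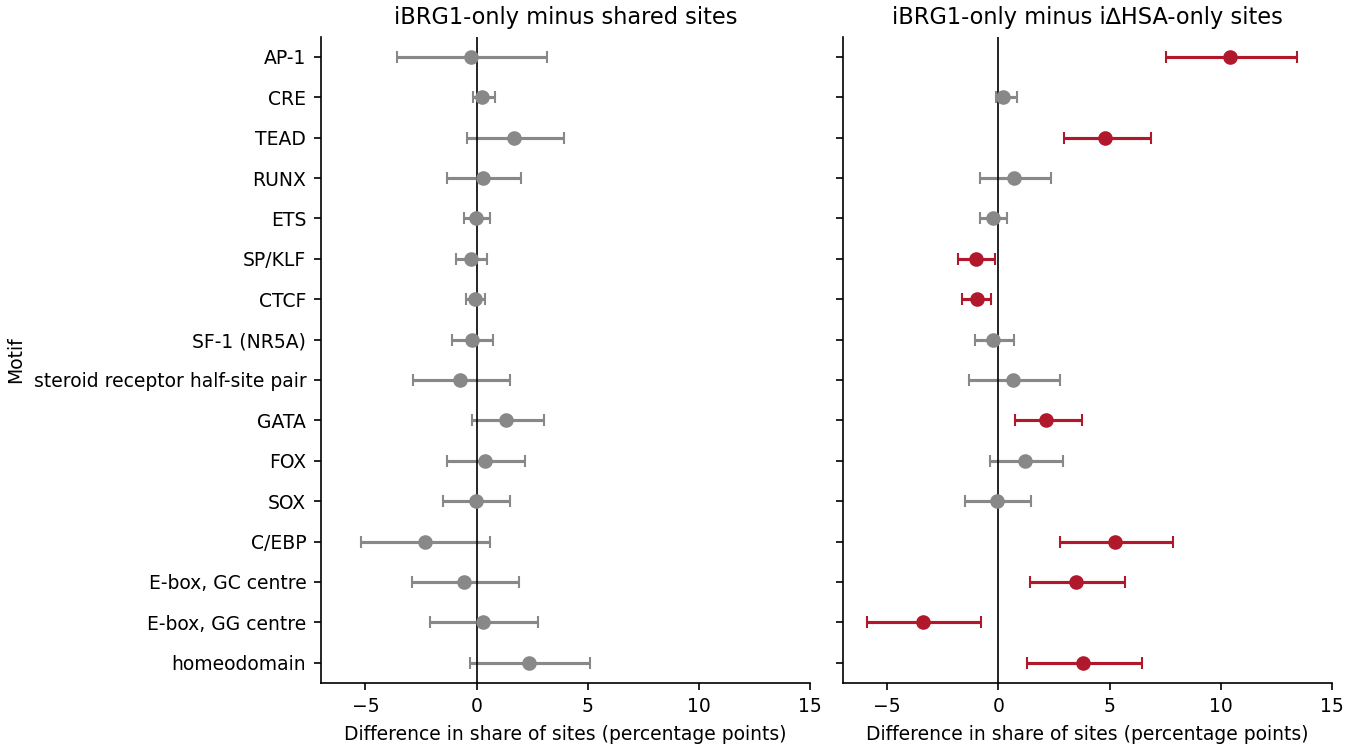
Difference in the share of sites with each of the 16 motifs, in percentage points, for iBRG1-only minus shared strong distal sites (left) and minus i∆HSA-only strong distal sites (right), with 95% Newcombe intervals; red marks intervals that exclude 0. All 16 intervals on the left include 0 and 9 on the right do not, led by AP-1 at 10.4 points. The sets on the right were cut by scores without a known common scale.

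A search that assumed no factor was also made. It ranked 7-base sequences by ratio to the flanks, and only those present in a fixed minimum number of midpoint windows. That minimum is a different share of each set, and rarer sequences were not ranked. Among the sequences ranked, the one most enriched over the flanks at the iBRG1-only sites was TGACTCA itself, followed by overlapping sequences shifted by 1 base. CATTCCA (7.90% against 2.92% in the flanks) and ACATTCC, both parts of the TEAD motif, held ranks 8 and 10. TGAATCA held rank 11 at 7.56% against 2.92%. In the i∆HSA-only sites the leading sequences were of another kind. ATATACG, at rank 1, was at 6.80% of those sites against 0.356% of their flanks. GTATATA, at rank 5, was the most frequent of the 12 leading sequences, at 24.6% against 2.69%.

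In both sequences purines and pyrimidines alternate. An alternating run of 20 bp or more, a measure chosen after the leading sequences had been seen, was present at 12 iBRG1-only sites, or 1.37%, against 1.15% of their flanks. The shared sites held such a run at 1.28% and the i∆HSA-only sites at 20.1%. The difference from the i∆HSA-only sites was -18.7 points (-21.1 to -16.4). With the i∆HSA-only sites that hold such a run left out, the difference in AP-1 share was still 8.59 points (5.48 to 11.8).

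The bases flanking the AP-1 motif were also read. Of the 168 AP-1 matches in the windows of the iBRG1-only sites, 33 (19.6%) read ATGACTCAT on either strand, with A before and T after the motif. In the shared sites it was 33 of 270 (12.2%). This was the most frequent form at the iBRG1-only sites. It was picked for comparison from these same counts, and no other form was compared. The difference was 7.42 points, with an interval of 0.50 to 14.9 that lies close to 0 at its lower end, and matches within 1 window are not independent.

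Over the whole peak, AP-1 was present in 606 of the 873 iBRG1-only sites, or 69.4% (66.3 to 72.4). Windows of the same width moved away from the same peaks held it at 23.8%. There were 909 matches in all, 241 sites held 2 or more and 1 site held 7. Here the iBRG1-only sites stood below the shared sites, of which 75.6% held a match, by -6.18 points (-10.1 to -2.28). The share with 2 or more matches was also lower, 27.6% against 37.5%, by -9.85 points (-13.9 to -5.75). Per kilobase there were 0.55 matches in the iBRG1-only sites and 0.68 in the shared sites, or 0.66 when a shared peak with 50 matches was left out. The shared sites also had higher scores and slightly wider peaks, so the shares were set side by side within ranges of each, chosen after the values had been seen. The iBRG1-only sites were lower in all 3 ranges of score, by -6.57 points at scores of 10 to 14 (-12.2 to -0.85), -7.24 at 15 to 19 (-14.9 to 0.35) and -5.40 at 20 or more (-14.0 to 2.61). By width, the difference was -11.6 points (-17.5 to -5.75) in peaks of 2 kb or more, -0.61 (-6.61 to 5.23) in peaks of 1 to 2 kb and -2.85 (-14.5 to 9.36) in narrower ones.

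TEAD was present in 36.5% of the iBRG1-only peaks and 36.1% of the shared peaks, a difference of 0.45 points (-3.74 to 4.67), and in 24.5% of the moved windows. AP-1 and TEAD occurred together in the window at 8 sites, AP-1 alone at 150 and TEAD alone at 56. The remaining 659 (75.5%) had neither in the window, and 163 (18.7%) had neither anywhere in the peak.

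Matches were spread along the peak with a broad maximum at its centre. When each peak was divided into 10 equal parts, AP-1 matches per 100 iBRG1-only peaks rose from 6.76 in the first part to 15.01 in the sixth and fell to 6.99 in the last. In the shared sites the corresponding values were 6.74, 17.8 and 6.40. TEAD ranged from 3.67 to 6.19 in the iBRG1-only sites. The lists give no summits, so the midpoint is only an estimate of where signal was highest.

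**Figure D3:**
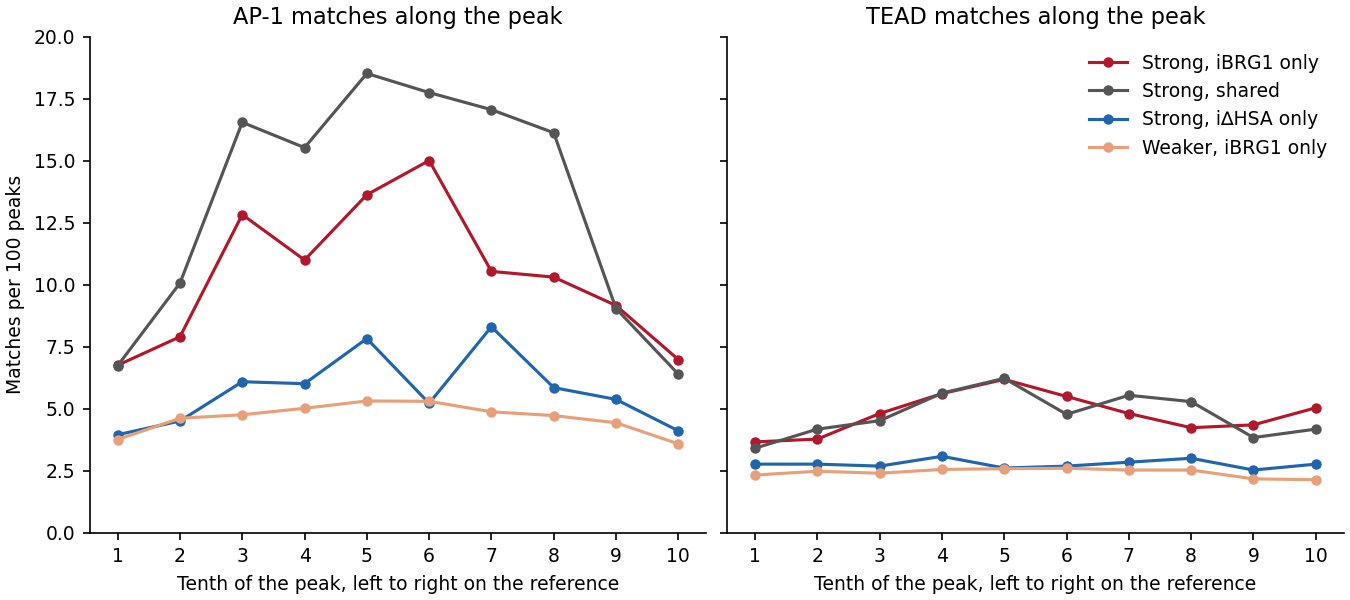
Motif matches per 100 peaks in 10 equal parts of the peak, for AP-1 (left) and TEAD (right) in the 4 sets of distal sites. AP-1 peaks in the middle parts of the iBRG1-only sites (15.01 in the sixth) and stands higher there in the shared sites (17.8).

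Among the iBRG1-only sites, the AP-1 share at the midpoint varied with width. It was 32.3% in the 155 sites under 1 kb wide, 20.4% in those of 1 to 2 kb and 9.43% in the 350 sites of 2 kb or more. The first and last of these differed by 22.8 points (15.1 to 31.0). The window has the same length in every peak, and its part in this difference was not tested. The share did not follow the score in order. It was 17.0% at scores of 10 and 11, 17.5% at 12 to 14, 21.3% at 15 to 19, 15.2% at 20 to 29 and 21.9% of the 32 sites at 30 or more, with overlapping intervals.

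The AP-1 share is also given by distance from the i∆HSA list, as a description, since position relative to that list chose the sites. It was 13.0% in the 92 sites under 5 kb from an i∆HSA peak, 18.05% in the 338 sites at 5 to 25 kb, 16.2% in the 333 at 25 to 100 kb and 28.2% in the 110 at 100 kb or more. TEAD was at 6.52%, 6.51%, 8.71% and 6.36% of the same groups.

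The site with the highest score lay in PGR, the progesterone receptor gene. This peak (chr11:100961866-100962642, 777 bp) had a score of 180, the highest of the iBRG1-only sites, and the next score was 62. Its midpoint was in an intron, 27.1 kb from the nearest transcript start. It was also the site farthest from any i∆HSA peak, at 770 kb. It held 1 AP-1 and 1 TEAD match, both outside the window at its midpoint.

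The next 9 sites scored from 62 to 43. The site of score 61 was the HOATZ intron printed above, and that of 48 lay in an intron of PPP2R5E, a regulatory subunit gene of protein phosphatase 2A. The others were intergenic. The site of score 58 was 10.2 kb outside DLG1, which encodes a membrane scaffold, that of 55 was 72.6 kb outside MAP2, a microtubule-binding protein gene of neurons, and that of 46 was 28.5 kb outside PEG10, an imprinted gene derived from a retrotransposon. The site of score 49 was 907 kb outside the nearest coding gene, DPP10. It lay 1.03 kb from the nearest annotated transcript start, and the site of score 46 lay 1.27 kb from one. Of the 10, 7 held AP-1 in the peak and 2 in the window. The next site in order also scored 43.

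The remaining 3 of the 10 were neighbours on chromosome 1. They belong to a group of 8 sites in 297 kb (chr1:98742101-99039285), the largest group in which each site lay within 100 kb of the next. Scores in order along the chromosome were 13, 43, 62, 11, 28, 21, 50 and 12. The interval held 9 iBRG1 peaks and 1 i∆HSA peak in all, and it overlapped no coding gene. The nearest coding genes on either side were DPYD, which encodes the enzyme that breaks down pyrimidines, and SNX7, a sorting nexin gene. AP-1 was present in 5 of the 8 peaks. The same 5 Mb of chromosome 1, the 5 Mb with the most iBRG1-only sites, held 14 of them, 4 shared sites and 0 i∆HSA-only sites. It held 65 iBRG1 peaks and 51 i∆HSA peaks of any score and position.

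Most sites stood alone. With neighbours joined at gaps of up to 100 kb, 661 (75.7%) had no other site in their group, 132 were in pairs and 80 in groups of 3 or more. Other groups of 4 or more included 6 sites in 252 kb of IMMP2L, 6 in 154 kb of DST, 5 in 143 kb of chromosome 1 without a coding gene (chr1:82771317-82914250) and 5 in 201 kb overlapping COL5A2, a fibrillar collagen gene.

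The sites also occurred among other iBRG1 peaks. Within 100 kb of an iBRG1-only site there were a median of 3 other iBRG1 peaks, as around the shared sites, and 24.5% of these other peaks overlapped an i∆HSA peak. The corresponding shares were 26.1% around shared sites and 20.9% around weaker iBRG1-only peaks. Measured from midpoint to midpoint, as these counts are, 114 iBRG1-only sites (13.1%) had no i∆HSA peak within 100 kb. Of the weaker iBRG1-only peaks, 22.1% had none. The 110 given above were measured between peak ends. Measured that way, the median distance to an i∆HSA peak was 25.4 kb for the iBRG1-only sites and 34.9 kb for the weaker iBRG1-only peaks.

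The genes with the most sites were IMMP2L, DST and ERBB4. IMMP2L, which encodes a subunit of the inner mitochondrial membrane peptidase, spans 900 kb and held 7 iBRG1-only sites, with scores of 31, 29, 19, 18, 16, 14 and 11. The gene held 16 iBRG1 peaks and 2 i∆HSA peaks in all. The i∆HSA peaks lay 124 and 137 kb from its 5′ end, while the 7 sites lay between 199 and 640 kb from it.

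DST, the gene of the cytoskeletal linker dystonin, spans 497 kb and held 6 sites with scores from 12 to 22. The gene held 9 i∆HSA peaks, on both sides of the sites and among them, and 1 site was only 1.33 kb from one. ERBB4, a receptor tyrosine kinase gene of 1163 kb, held 5 sites with scores from 12 to 22. The highest iBRG1 peak in ERBB4 scored 82 and was shared, with an i∆HSA score of 43. Scores of the 2 lists are not on a known common scale.

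**Figure D4:**
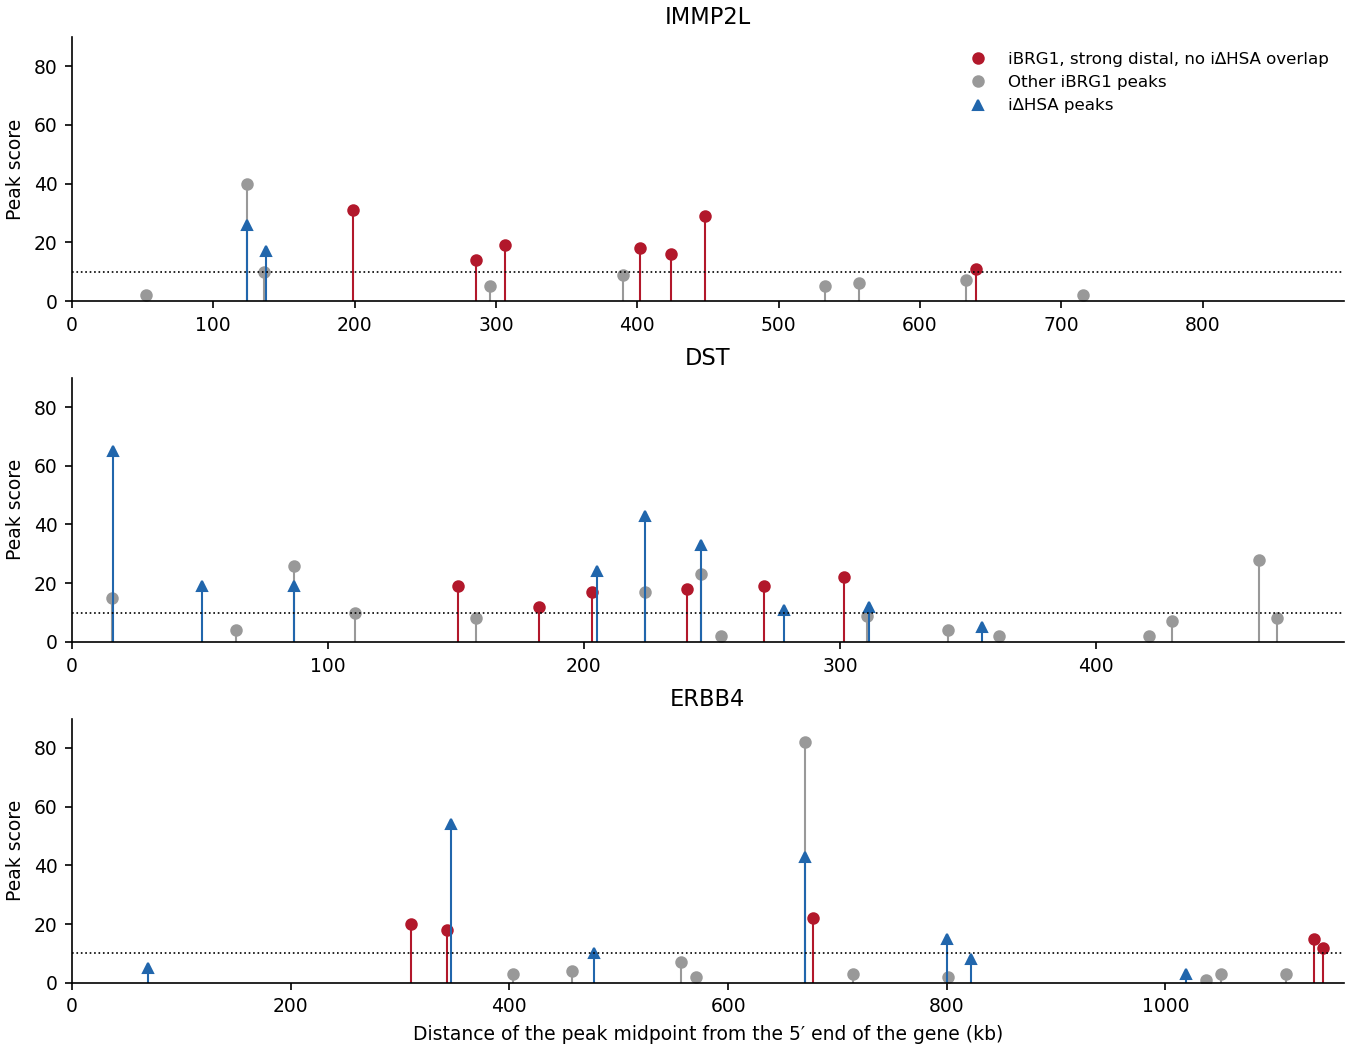
Peaks along IMMP2L, DST and ERBB4, by distance of the midpoint from the gene's 5′ end in kb and by the authors' score, for iBRG1-only strong distal sites (red), other iBRG1 peaks (grey) and i∆HSA peaks (blue triangles); the dotted line is a score of 10. IMMP2L has 7 red sites between 199 and 640 kb with no i∆HSA peak among them, while in DST i∆HSA peaks lie on both sides of the 6 red sites and among them.

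A further 11 genes held 3 sites each. They were COLEC12 (a scavenger receptor, scores 12 to 32), SIPA1L1 (a GTPase activator of Rap, 11 to 35), IGF2BP2 (12 to 30), VMP1 (an autophagy membrane protein, 13 to 21), LRRTM4 (a synaptic adhesion protein, 12 to 24), NSMCE2 (a SUMO ligase, 10 to 22), C8orf34, FNDC3B, GPHN, TOX and CADM2. AP-1 was present in all 3 peaks of COLEC12, SIPA1L1, LRRTM4 and NSMCE2 and in 2 of 3 in IGF2BP2 and VMP1. It was present in 1 of 3 in C8orf34, FNDC3B, GPHN, TOX and CADM2. In IMMP2L it was in 4 of 7, in DST in 2 of 6 and in ERBB4 in 3 of 5. Of all 873 sites, 69.4% held it. Altogether 449 coding genes held the midpoint of a site, 386 of them a single site, 49 held 2 and 14 held 3 or more.

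By position, 597 of the 873 midpoints (68.4%, 65.2 to 71.4) lay in introns, 480 of them in coding genes. A further 28.1% were intergenic, 5 were in coding exons and 26 in other exons. The intron share of the shared sites was 71.4%, a difference of -3.03 points (-7.07 to 0.97). It was 56.0% in the i∆HSA-only sites, lower by 12.4 points (8.21 to 16.4), and 61.6% in the weaker iBRG1-only peaks. AP-1 was found at 18.4% of the intronic and 17.1% of the intergenic iBRG1-only sites.

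The iBRG1-only sites lay somewhat farther from coding genes than the shared sites. The median distance to a coding transcript start was 26.7 kb against 22.5 kb. The share of sites over 100 kb from one was 22.2% against 14.8%, higher by 7.46 points (4.07 to 10.9). It was 20.25% in the i∆HSA-only sites, a difference of 1.97 points (-1.53 to 5.54). In the weaker iBRG1-only peaks it was 26.45%, a difference of -4.23 points (-6.96 to -1.27). The share with the midpoint inside a coding gene was 58.2% against 62.8% of the shared sites, by -4.61 points (-8.89 to -0.33). The start nearest to a site was that of a coding gene for 411 sites (47.1%), of a long noncoding RNA for 229 and of another transcript for 233.

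By chromosome, the density of iBRG1-only sites was highest on chromosome 14 (57 sites, 53.1 per 100 Mb), followed by 18 (44.8), 6 (44.4) and 10 (42.8). Chromosome Y held no site of either set. Of the other chromosomes, the density was lowest on 19 (3 sites, 5.07 per 100 Mb), 22 (3 sites, 5.85) and X (10 sites, 6.44). Against the shared sites, 4 of 23 intervals excluded 0. Chromosome X held 1.15% of the iBRG1-only and 3.24% of the shared sites (-2.10 points, -3.38 to -0.81), and chromosomes 4 and 20 were also lower. Chromosome 5 was higher by 1.89 points (0.04 to 3.88). Copy number of the chromosomes in SW-13 cells was not measured here.

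**Figure D5:**
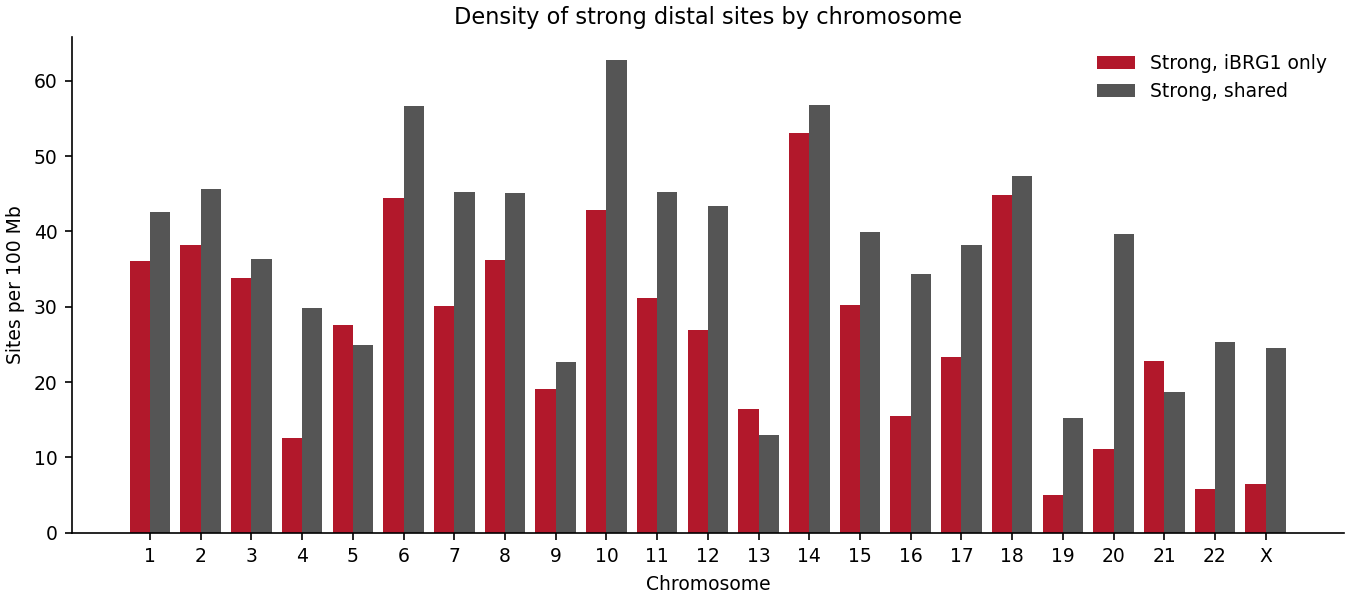
Density of the 873 iBRG1-only (red) and 1172 shared (grey) strong distal sites per 100 Mb of chromosomes 1 to 22 and X. Of the chromosomes drawn, 14 has the highest iBRG1-only density (53.1) and 19 the lowest (5.07).

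The genes near the sites were read against 14 lists. Of the 20163 coding genes, 910 (4.51%) had an iBRG1-only site in the gene or within 50 kb. This share depended on gene length, from 2.16% of genes under 20 kb to 13.8% of genes of 200 kb or more, so each list is given with its median gene length (27.2 kb for all coding genes). A peak near a gene is a position, and expression was not measured in these files.

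Of 38 integrins and laminins (median 80.6 kb), 6 had a site, or 15.8% (7.44 to 30.4), led by ITGB6 and ITGB1, both integrin beta subunits, with scores of 16 and 15. Of 54 actin, focal adhesion and contractile genes (70.1 kb), 6 had one, or 11.1% (5.19 to 22.2). Among these were LPP, a zyxin family protein (score 29), PTK2, the focal adhesion kinase (21), and VCL, which encodes vinculin (21), each inside the gene. Of 35 cadherins and protocadherins (135 kb), 2 had one, or 5.71% (1.58 to 18.6), PCDH9 (20) and CDH18 (17). Coding genes of 50 to 100 kb had one in 4.86% and those of 100 to 200 kb in 9.76%.

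Of 44 collagens (145 kb), 4 had a site, or 9.09% (3.59 to 21.2). Of 55 matrix glycoproteins and proteoglycans (38.3 kb), 5 had one, or 9.09% (3.95 to 19.6). Of 51 matrix proteases and inhibitors (28.0 kb), 2 had one, or 3.92% (1.08 to 13.2). Coding genes of 100 to 200 kb had one in 9.76% and those of 20 to 50 kb in 3.2%. The collagens were COL21A1 (score 28), COL17A1 (25), COL5A2 (19) and COL25A1 (10), each given with its highest-scoring peak. These 4 peaks contained AP-1, as did 69.4% of all 873 sites. COL21A1, COL17A1 and COL5A2 had 2 sites each. A single peak of score 11 with 3 AP-1 matches lay within 50 kb of both MMP12 and MMP3, which encode matrix metalloproteinases. LTBP1 and LTBP2, which hold latent TGF-beta in the matrix, had peaks with scores of 17 and 19.

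Of 26 TEAD factors, coactivators and classic targets (33.6 kb), 5 had a site, or 19.2% (8.51 to 37.9). CCN2, a matricellular protein and target of YAP, had a peak of score 17 that was 8.45 kb outside the gene and held 2 TEAD matches and no AP-1 match. YAP1 itself had a peak of score 12 inside the gene, with 1 TEAD and 1 AP-1 match. LATS2, a kinase that restrains YAP, had one of score 11 with 2 AP-1 matches and no TEAD match. CRIM1, a transmembrane protein gene, had 3 sites within 50 kb, the highest of score 16 with neither motif in the peak. Of the 15 AP-1 factors (9.47 kb) only FOS had one, or 6.67% (1.19 to 29.8), 43.9 kb outside the gene with a score of 13. Coding genes of 20 to 50 kb had a site in 3.2% and those under 20 kb in 2.16%.

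Signalling genes included 5 of 53 receptor tyrosine kinases (85.4 kb), or 9.43% (4.10 to 20.25). Among them were ERBB4, EPHA5 (score 21), PDGFRB and CSF1R. The last 2 were near the same iBRG1-only peak of score 15. Of 49 genes of the TGF-beta and BMP pathway (45.4 kb), 3 had a site, or 6.12% (2.10 to 16.5), in or near SMURF2, TGFB2 and BMPR1B. Of 48 nuclear receptors (53.6 kb), 6 had one, or 12.5% (5.86 to 24.7), with PGR at 180, NR5A2 and RARB at 16 and NR6A1 at 14. None of 20 genes of adrenal steroid synthesis (13.2 kb) did (Wilson upper bound 16.1%). Of 32 genes of G1 arrest and senescence (13.6 kb), 3 had one, or 9.4% (3.24 to 24.2). They were CDKN1B, which encodes the cyclin-dependent kinase inhibitor p27, with a score of 10, and IL1A and IL1B, both near the same iBRG1-only peak of score 11. Of 31 SWI/SNF subunit genes (51.1 kb), only BICRAL had one, or 3.23% (0.57 to 16.2), with a score of 13. Coding genes under 20 kb had a site in 2.16%, those of 20 to 50 kb in 3.2% and those of 50 to 100 kb in 4.86%.

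The 1172 shared sites were near 1349 of the 20163 coding genes, against 910 for the 873 iBRG1-only sites. Counts per list are therefore not comparable between the 2 sets without these totals. The shared sites were near 9 of 54 actin, focal adhesion and contractile genes, 8 of 53 receptor tyrosine kinases and 7 of 55 matrix glycoproteins and proteoglycans. They were near 7 of 49 genes of the TGF-beta and BMP pathway and 6 of 38 integrins and laminins. Of 48 nuclear receptors they were near 6, and of 35 cadherins and protocadherins near 5. They were near 4 genes each of the 44 collagens, 51 matrix proteases and inhibitors, 26 genes of the TEAD list and 31 SWI/SNF subunits. They were near 2 each of the 15 AP-1 factors, 20 genes of adrenal steroid synthesis and 32 of G1 arrest and senescence.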

How the data were processed

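Anti-V5 CUT&RUN was performed on 4 samples of SW-13 cells, 2 per construct, after digestion for 30 min and 12 PCR cycles, and groups were taken from the sample titles. The submitters' processing notes name cutadapt, Bowtie2, Picard, SAMtools, MACS2 2.2 and hg19. Per the study's methods, the authors removed duplicates, called peaks, took out peaks found in controls and kept peaks above a minimum score. The iBRG1 list used here holds scores down to 0, and whether that minimum refers to this score is not stated. Whether control peaks were taken out of the lists is not stated either. The deposited score of each peak is the authors' value, given in whole numbers on an unstated scale. It filters and ranks peaks within a list. Whether replicates were pooled before calling is not stated. Fewer or shallower reads would give fewer called peaks, so a peak missing from a list can reflect depth, and controls were not analysed here.

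Peaks were annotated on hg19 (GRCh37) with GENCODE release 44 mapped to that build, and positions are 1-based. No peak ended beyond a chromosome. Any overlap of 1 bp or more counted as shared. The 16 motifs were sought on both strands, within 100 bp of the midpoint and in the whole peak. The comparison windows lay 2 kb to each side, and genome windows were 200 bp long, 1 in 10 of them read. Named sites were the 10 of highest score, those in genes with 3 or more, the printed examples (5 with AP-1 within 25 bp of the midpoint and 3 with TEAD alone) and, per gene list, up to 4 genes with the highest-scoring site. The sites and the gene and motif lists were chosen with earlier results of these data known. Python 3.11.15 with numpy 2.4.6, pandas 2.3.3, pysam 0.24.0 and matplotlib 3.10.9 was used, and overlap, motif search and intervals were tested on simulated data. The alternatives changed the score, overlap, distance, GC and window rules, and the closing section gives their effect.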

Additional observations from a re-analysis of the deposited data

How the results depend on the processing

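No paired analysis was possible because the replicates of a construct share a single list of peaks, and replicates could not be left out for the same reason. Of 132 values under the alternatives, 112 stayed within the interval of the reported share or difference, or within 1.5 times a reported count, 20 moved outside and none reversed a difference whose interval excluded 0. The number of sites was 1322, 368 and 157 at scores of 8, 15 and 20 or more, and coding genes with a site nearby numbered 404 and 181 at scores of 15 and 20 or more. At 20 or more, the TEAD share was 5.73%, the AP-1 difference from shared sites -3.88 points (-10.3 to 3.57) and the intron share 72.0%. A window of 50 bp to each side gave an AP-1 share of 9.74%, a TEAD share of 3.21% and AP-1 differences of 5.62 points from the i∆HSA-only sites and 5.92 from the weaker peaks. A window of 250 bp to each side gave 36.5%, 14.8%, 21.3 and 19.04 points. These windows are shorter and longer, and the direction against both sets was kept. With a GC minimum of 35% the AP-1 difference from the i∆HSA-only sites was 7.45 points (3.59 to 11.4), and the cause was not tested. With transcripts of protein-coding genes as the only annotation, the intron share was 55.3%. Within 10 kb of a site there were 536 coding genes, and 451 contained one. Leaving out the PGR site, or the i∆HSA-only sites with alternating runs, were alternatives chosen after seeing the data, and both kept every value they touched inside its interval. The AP-1 difference from shared sites ranged from -3.88 to 0.74 points over the alternatives. Depth is unknown, and a peak that was not called cannot be told apart from weak binding.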
